A study of Mus musculus with 32 samples.

Results

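The cytochromes P450 of families 1 to 3 were followed in the liver RNA-seq of mice with disrupted mitochondrial fission and fusion. Members were the genes whose symbol begins with *Cyp1*, *Cyp2* or *Cyp3* followed by a letter, and the 9 rows named as pseudogenes were left out. This gave 48 of the 21880 genes in the table, against 61 symbols of that form in the GENCODE M21 annotation. Livers were taken at 2 months (2M) and 6 months (6M) of age from WT mice and from 3 knockouts named L-*Dnm1l*–KO, DKO and TKO. Each of the 8 groups had 4 libraries, which makes 32. All knockouts carried floxed alleles on a mixed C57BL/6/129 background and an albumin-Cre transgene, which is active in hepatocytes, so that other liver cells kept the genes. *Dnm1l* fl/fl mice gave the L-*Dnm1l*–KO, *Mfn1* fl/fl and *Mfn2* fl/fl mice the DKO, and mice with floxed alleles of *Dnm1l*, *Mfn1* and *Mfn2* the TKO. The WT libraries of both ages are titled for the *Dnm1l* (Drp1) line, and the same WT libraries served for the TKO and DKO comparisons. The labels do not give the sex of the mice.

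P450 enzymes are heme proteins of the endoplasmic reticulum that oxidize drugs, steroids, fatty acids and environmental chemicals, with electrons delivered by cytochrome P450 reductase (*Por*) and, for some reactions, cytochrome b5 (*Cyb5a*). Most members of families 1 to 3 are made in hepatocytes, many of them in the cells around the central vein. Their genes are induced through the receptors AhR (*Ahr*), CAR (*Nr1i3*) and PXR (*Nr1i2*), and several, *Cyp2d9* among them, are set at different levels in male and female mice by growth hormone acting through STAT5.

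The authors' deposited DESeq2 results were used, which give for each gene a mean normalized count over all libraries and, for each knockout against WT of the same age, a log2 fold change with its SE, a Wald test *P* and its value after Benjamini-Hochberg adjustment. Values of single mice were not analysed here, so the spread between mice enters only through the SE, and depth per library is unknown. The libraries were strand-specific and the strand setting of the read counting is not given in the sources used here. Had reads been counted on the opposite strand, a row would hold few reads of the mRNA it is named for, and its level, its share of all counts and its fold change would be those of other reads. Every value below is that of the deposited row under the gene's name, with this limit. The *P* values rest on a spread per gene that all 8 groups share in a fit of the 32 libraries. They do not measure the spread within the 4 libraries of a single group. A member was called higher or lower at an adjusted *P* under 0.05. In a whole liver, fewer hepatocytes and less RNA per hepatocyte cannot be told apart.

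*Cyp2e1*, which oxidizes ethanol and acetaminophen, was the most abundant member, with a mean normalized count of 671.1 and 311 per kb of exon. *Cyp3a11*, a major drug-metabolizing enzyme and PXR target, followed with 348.6, or 68.5 per kb. *Cyp2c29*, an epoxygenase, had 144, or 47.1 per kb. These 3 were the members with a mean of at least 100, and *Cyp2e1* alone held 33.5% of the summed mean count of all members. A further 20 members had means between 10 and 100, among them *Cyp2f2* (86.8), known for naphthalene oxidation in periportal cells, *Cyp2a5* (75.6), a coumarin hydroxylase, and *Cyp1a2* (47.3), the caffeine-oxidizing enzyme induced through AhR. Of the remainder, 11 members had means of 1 to 10 and 14 were under 1. The low group held the AhR target *Cyp1a1* (0.282), *Cyp1b1* (0.205) and *Cyp2b9* (0.694), and the CAR target *Cyp2b10* stood at 2.44. *Cyp3a41a* is not among the 48 genes, and *Cyp3a41b*, of which 90.9% of 75-base transcript windows occur in another gene, had a mean of 0.103. Summed over all members the mean count was 2003, or 0.222% of the 900450 of the whole table.

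**Figure D1:**
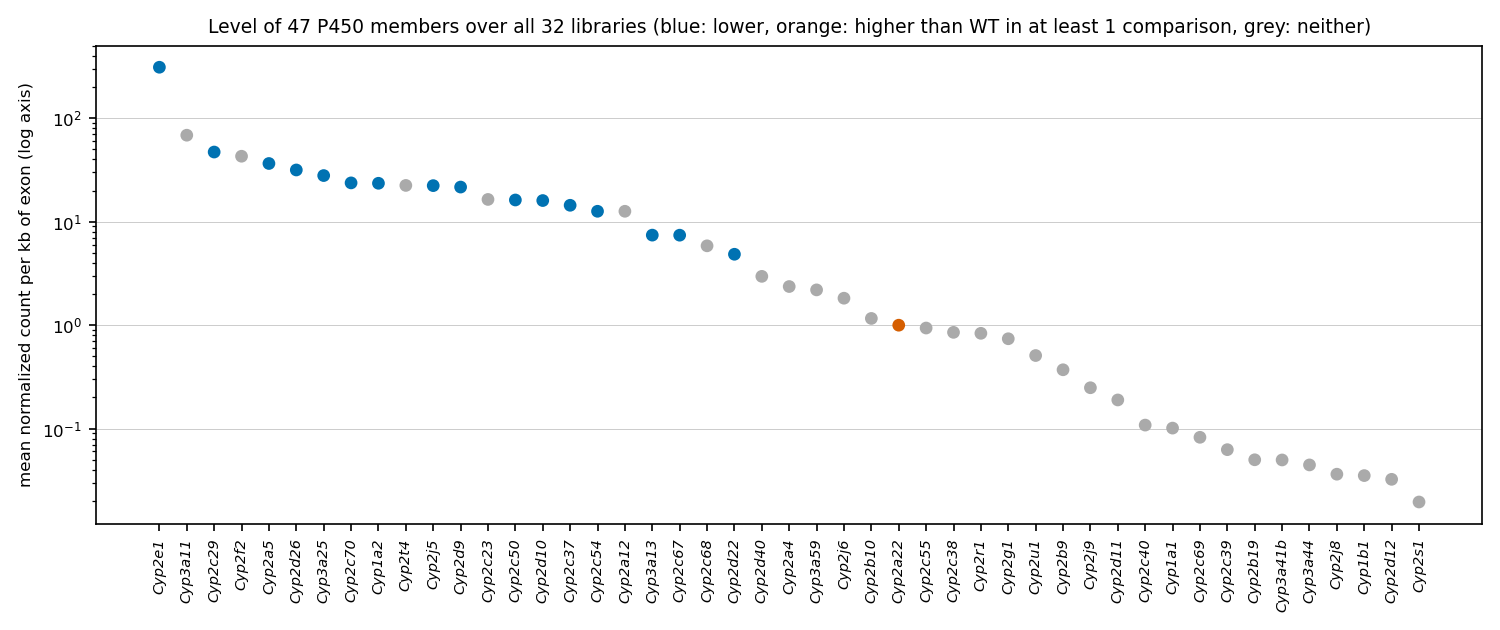
Mean normalized count per kb of exon, over all 32 libraries and on a log axis, of the 47 members with an annotated exon length, in falling order. *Cyp2e1* lies highest at 311 per kb, the members lower than WT in at least 1 comparison (blue) lie among the abundant ones, and *Cyp2a22* (orange, 0.998 per kb) was the member called higher. The filter on low counts left 19 members with no adjusted *P* value in any comparison, so these could not be called.

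A total of 41 members have no annotated gene on the opposite strand of their exons. This bears on their levels because the counted strand is not known. *Alb*, whose mRNA is among the most abundant in liver and which has no opposite-strand gene, had a mean of 4958 of the 900450 in the table. Of the 100 genes with the highest means in the table, 92% share exon bases with an opposite-strand coding gene and 3% are coding genes with none. The log2 fold changes of the 2 kinds of gene also had different medians. In the DKO at 6M the median was −0.85 over 1335 coding genes with no opposite-strand gene and a mean of at least 10, and 0.30 over 2474 genes that overlap an opposite-strand coding gene. In the L-*Dnm1l*–KO at 2M these medians were −0.46 and 0.12. The members are therefore set below beside coding genes with no opposite-strand gene as well as beside all genes. Whether their counts come from their own mRNA was not tested, and neither was the part of the read counting in the results.

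Of the members, 18 were called in at least 1 comparison, 17 of them lower and *Cyp2a22* higher. *Cyp2e1*, *Cyp2c37* and *Cyp2d26* were called lower in 3 comparisons and *Cyp2c29*, *Cyp2d9* and *Cyp2d10* in 2. These 6 genes carry most of the calls, and the 200 bases before their RefSeq start sites are shown to set their promoters side by side. The sequences are from RefSeq on GRCm38.p6 and are written 5′ to 3′ on the strand of the gene, with matches to 4 short motifs in capitals.
Cyp2e1: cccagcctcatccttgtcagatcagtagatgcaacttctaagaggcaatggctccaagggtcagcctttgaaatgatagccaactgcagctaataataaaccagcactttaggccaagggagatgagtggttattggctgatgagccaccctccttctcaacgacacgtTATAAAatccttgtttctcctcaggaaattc
Cyp2c29: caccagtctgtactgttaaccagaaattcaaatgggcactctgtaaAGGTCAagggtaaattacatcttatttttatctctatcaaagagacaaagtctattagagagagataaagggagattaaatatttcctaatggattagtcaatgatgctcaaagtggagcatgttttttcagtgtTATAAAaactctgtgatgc
Cyp2c37: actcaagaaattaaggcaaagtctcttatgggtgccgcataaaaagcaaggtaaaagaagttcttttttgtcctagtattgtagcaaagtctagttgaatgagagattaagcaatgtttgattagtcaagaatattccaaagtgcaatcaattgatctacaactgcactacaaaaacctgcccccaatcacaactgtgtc
Cyp2d9: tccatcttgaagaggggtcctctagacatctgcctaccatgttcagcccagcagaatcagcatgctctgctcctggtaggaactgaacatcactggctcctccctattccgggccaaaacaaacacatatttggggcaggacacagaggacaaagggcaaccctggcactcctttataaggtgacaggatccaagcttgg
Cyp2d10: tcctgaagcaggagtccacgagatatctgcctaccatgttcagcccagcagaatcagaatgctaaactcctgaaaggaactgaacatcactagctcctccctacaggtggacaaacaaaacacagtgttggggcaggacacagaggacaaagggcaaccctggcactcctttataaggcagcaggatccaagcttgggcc
Cyp2d26: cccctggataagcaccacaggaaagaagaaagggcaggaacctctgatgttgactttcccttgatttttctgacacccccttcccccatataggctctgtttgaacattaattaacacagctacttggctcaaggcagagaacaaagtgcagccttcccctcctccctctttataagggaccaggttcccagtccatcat
The windows lie at chr7:140763619-140763818 (plus strand), chr19:39286885-39287084 (plus strand), chr19:39992224-39992423 (plus strand), chr15:82452177-82452376 (plus strand), chr15:82407195-82407394 (minus strand) and chr15:82794246-82794445 (minus strand). Capitals mark TATAAA, the TATA box, in *Cyp2e1* (31 bases before the start) and *Cyp2c29*, and AGGTCA, the core hexamer of nuclear receptor sites, in *Cyp2c29*. The other 4 windows held no match. GCGTG, the AhR core, and TTCNNNGAA, the STAT5 site, were also searched, all but TATAAA on both strands, and no matches overlapped in these windows. Over the 41 members with a RefSeq window, TATAAA stood in 34.1% (6.27% of all 32851 windows of this length), AGGTCA in 26.8% (11.4%), GCGTG in 12.2% (24.7%) and TTCNNNGAA in 0 (5.49%). The *Cyp2d9* and *Cyp2d10* windows were alike, with 166 identical bases of 197 compared (84.3%), whereas the *Cyp2d26* window shared 35% with that of *Cyp2d10* and 32.5% with that of *Cyp2d9*. The *Cyp2c29* and *Cyp2c37* windows shared 34.7%.

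In L-*Dnm1l*–KO mice at 2M, 4 members were lower than in WT and none was higher, of 24 with an adjusted *P* value. *Cyp2d10* had the lowest adjusted *P* value, with a log2 fold change of −2.19 ± 0.45 (SE, n = 4 per group), or 21.9% of WT (95% interval 11.9% to 40.4%, adjusted *P* = 1.3e-04). *Cyp2c67* stood at 16.6% of WT (6.11% to 45.1%, adjusted *P* = 0.013). *Cyp2e1* stood at 42.3% (25.4% to 70.4%, adjusted *P* = 0.024) and *Cyp2d26* at 44.1% (26.4% to 73.9%, adjusted *P* = 0.035), and both lost their calls when every gene with a *P* value entered the adjustment (adjusted *P* = 0.08 and 0.12). *Cyp2c37*, with an adjusted *P* of 0.05 that before rounding lies above the threshold, and *Cyp2c68* (adjusted *P* = 0.055), a close relative of *Cyp2c67*, were not called, at log2 fold changes of −1.24 ± 0.42 and −2.43 ± 0.84. Of all tested genes 3.22% were called lower, and of coding genes with no opposite-strand gene 5.37%. For the 23 members with a mean of at least 10, all of which were tested in every comparison, the median log2 fold change was −0.65, with 21 of 23 below 0, beside −0.46 and 76.6% below 0 for coding genes with no opposite-strand gene.

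*Cyp2d10* shares 22.3% of its 75-base transcript windows with other genes, *Cyp2d11* first among them, and *Cyp2c67* shares 36%, mostly with *Cyp2c40*, so that their counts can hold reads of a relative or lack reads of their own. *Cyp2e1* shares 2.34% and *Cyp2d26* 3.34%. *Cyp3a11* was close to WT at 2M in L-*Dnm1l*–KO mice, with a log2 fold change of 0.03 ± 0.43 (57% to 183% of WT). *Cyp2a5*, at −0.01 ± 0.28, and *Cyp2t4*, at 0.08 ± 0.34, were also among those nearest to 0.

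In L-*Dnm1l*–KO mice at 6M, *Cyp2c37* was the only member called, of 23 tested. Its log2 fold change was −1.84 ± 0.39, or 27.9% of WT (16.4% to 47.5%, adjusted *P* = 6.2e-04). *Cyp2c37* encodes an arachidonic acid hydroxylase of pericentral hepatocytes. Of all tested genes 1.56% were called lower and of coding genes with no opposite-strand gene 1.16%. None of the members called at 2M was called at this age, *Cyp2d10* at 0.04 ± 0.36, *Cyp2d26* at 0.03 ± 0.35, *Cyp2e1* at −0.46 ± 0.37 and *Cyp2c67* at −0.54 ± 0.50, and the median over the 23 members was −0.09. *Cyp3a11* had a log2 fold change of 0.75 ± 0.42 and *Cyp2t4* of 0.88 ± 0.34, neither of them called (adjusted *P* = 0.45 and 0.15).

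In TKO mice no member was called at 2M or 6M by DESeq2. At 2M, 26 members were tested and none of these had an unadjusted *P* under 0.05. Among all 48 members *Cyp2a4* (−5.28 ± 1.48, mean 4.10) and *Cyp2g1* (−3.01 ± 1.37, mean 1.58) did, but both were removed by the filter on low counts and have no adjusted *P* value. At 6M, 23 were tested and 0 of the 48 had an unadjusted *P* under 0.05. Of all tested genes only 0.199% were called lower at 2M and 0.535% at 6M, and of coding genes with no opposite-strand gene 0.110% and 0.219%, so few genes of any kind were called. *Cyp2e1* stood at 147% of WT (88.7% to 244%) at 2M and 118% (71.1% to 195%) at 6M. For *Cyp2d10* the values were 76.9% (45.7% to 130%) and 94.1% (57.2% to 155%). The intervals of these 2 genes include no change and, for *Cyp2d10* at 2M, also a fall to 45.7%. Median log2 fold changes over the 23 members were 0.26 and 0.04.

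In DKO mice at 2M, 6 members were lower and 1 was higher, of 28 tested. *Cyp2c37* fell to 16.7% of WT (8.79% to 31.8%, adjusted *P* = 4.2e-06) and *Cyp2d9*, a steroid hydroxylase higher in males, to 18.1% (9.91% to 33.2%, adjusted *P* = 2.7e-06). *Cyp2d26* fell to 37% of WT, *Cyp2d10* to 37.3%, *Cyp2c29* to 42% and *Cyp2e1* to 46.7%, with adjusted *P* values of 0.0035, 0.0076, 0.0041 and 0.04. The *Cyp2e1* call was lost when every gene with a *P* value entered the adjustment (adjusted *P* = 0.11). *Cyp2a22* was the member called higher, at a log2 fold change of 3.94 ± 0.97 (adjusted *P* = 0.0015), but from a mean of 3.44 normalized counts, and the interval of its fold runs from 411% to 5757% of WT. Of all tested genes 4.94% were called lower and 4.14% higher, and of coding genes with no opposite-strand gene 5.18% were called lower. *Cyp2b10*, the usual marker of CAR activity, had a log2 fold change of 3.07 ± 1.15 with no adjusted *P* value, and *Cyp3a11* one of 0.29 ± 0.43. The median over the 23 members was −0.69, and 18 of 23 were below 0, beside −0.23 and 64.5% for coding genes with no opposite-strand gene.

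In DKO mice at 6M, 15 members were lower and none was higher, of 29 tested. *Cyp2c70*, which makes muricholic acids in mouse liver, fell to 22.7% of WT (14% to 36.8%), a log2 fold change of −2.14 ± 0.36 (adjusted *P* = 2.0e-06). The Cyp3a genes *Cyp3a13* and *Cyp3a25* fell to 27.5% (14.1% to 53.7%) and 36.9% (21.6% to 63.1%). The Cyp2d genes *Cyp2d22*, *Cyp2d13*, *Cyp2d26* and *Cyp2d9* fell to 33.3%, 33.6%, 40.6% and 43.2%. The Cyp2c genes *Cyp2c37*, *Cyp2c50*, *Cyp2c29* and *Cyp2c54* fell to 37.3%, 39%, 40.3% and 44.1%. *Cyp2e1* fell to 37.8% (22.8% to 62.6%, adjusted *P* = 0.0043), and *Cyp2j5*, an arachidonic acid epoxygenase, to 39.3% (22.1% to 69.7%, adjusted *P* = 0.017). *Cyp1a2*, at 49.2%, and *Cyp2a5*, at 49.8%, showed the smallest called changes, with adjusted *P* values of 0.049 and 0.0063. When every gene with a *P* value entered the adjustment, *Cyp1a2* and *Cyp2d9* lost their calls (adjusted *P* = 0.11 and 0.058).

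Calls were frequent among all genes in that comparison. Of all tested genes 9.42% were called lower and of coding genes with no opposite-strand gene 16%, against 14 of the 24 members of that kind. The 23 members had a median of −1.21 with 22 below 0, beside −0.85 and 81.6% below 0 for coding genes with no opposite-strand gene. The exception was *Cyp2t4*, at 0.82 ± 0.35 (adjusted *P* = 0.083), and it is the only member whose exons meet those of an opposite-strand coding gene (*Egln2*, over 11 bases). *Cyp3a11* stood at 53.3% of WT (29.8% to 95.2%, adjusted *P* = 0.13) and was not called.

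**Figure D2:**
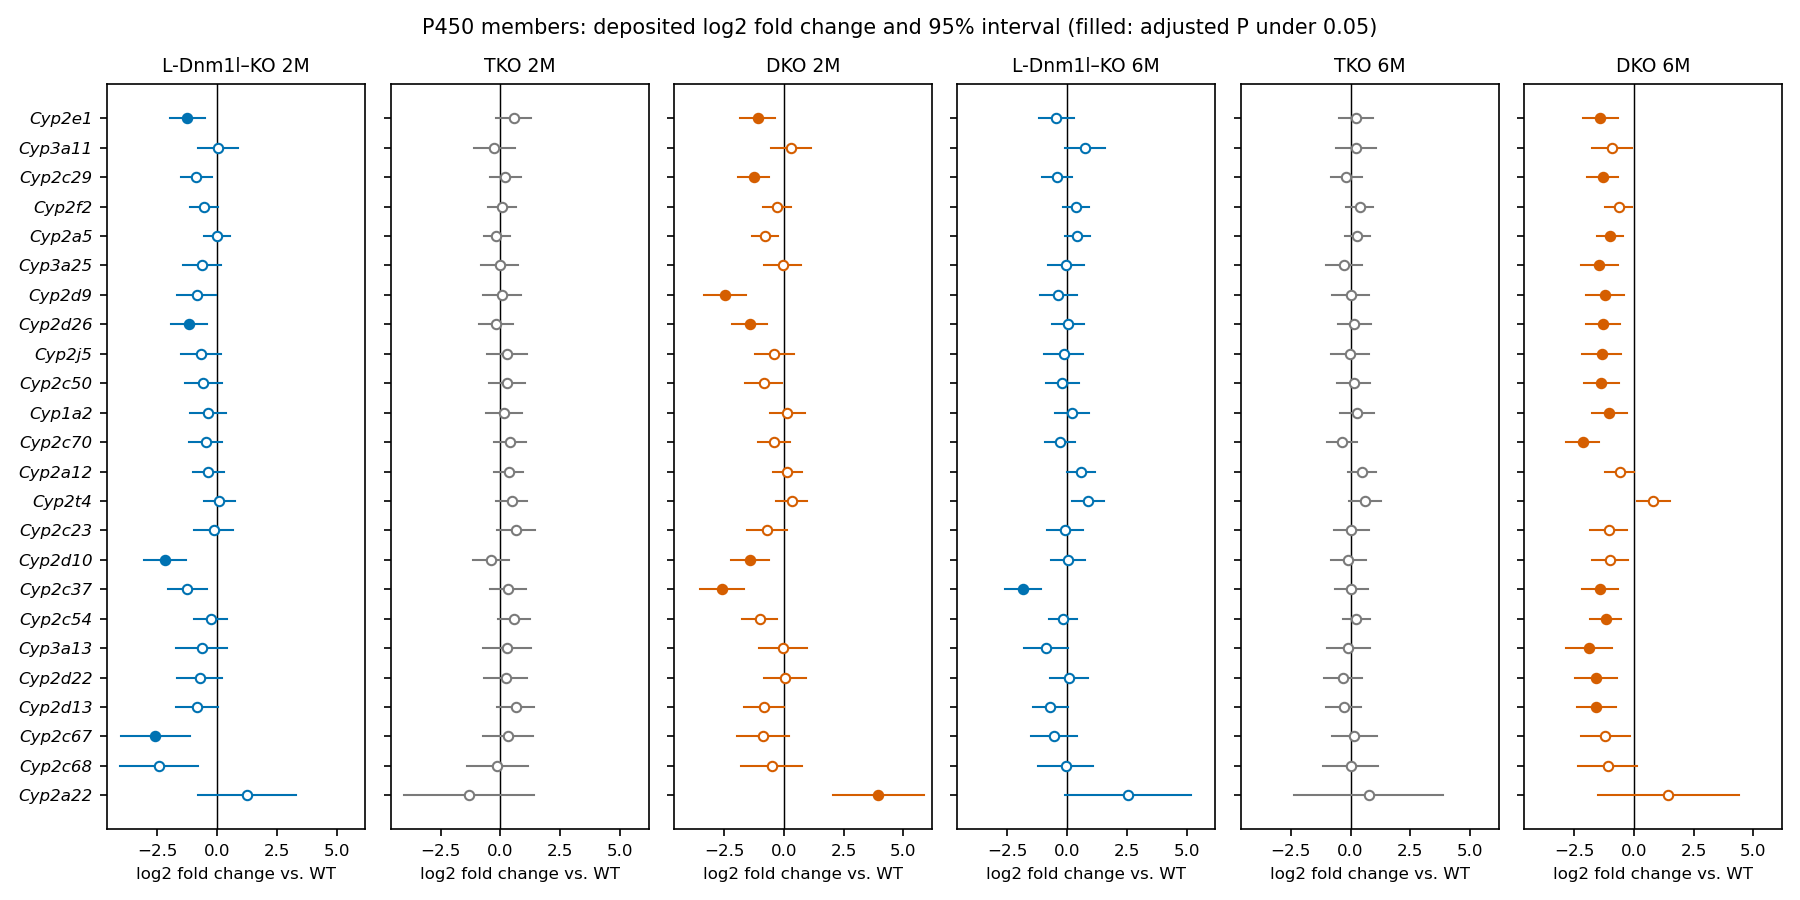
Deposited log2 fold change against WT of the same age with its 95% interval, for the 23 members with a mean of at least 10 and *Cyp2a22*, ordered by mean count, 1 panel per knockout group (4 libraries against 4). Filled points have an adjusted *P* under 0.05, and they number 4, 0, 7, 1, 0 and 15 from left to right.

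With log2 fold changes centred on the median of genes of the same overlap kind, a choice made after seeing the data, the median over the 23 members was −0.21 in L-*Dnm1l*–KO mice and −0.47 in DKO mice at 2M, and −0.45 in DKO mice at 6M. Calls were then 1 in L-*Dnm1l*–KO mice at 2M (*Cyp2d10*), 6 in DKO mice at 2M, 1 in L-*Dnm1l*–KO mice at 6M (*Cyp2c37*) and 2 in DKO mice at 6M (*Cyp2c70* at −1.29 and *Cyp2d13* at −1.43). *Cyp2d13* is missing from the annotation, so its overlap kind is unknown and it was centred with rows of neither kind. Its value moved only from −1.57 to −1.43, so its call cannot be compared with those of the other members. *Cyp2e1* lost its calls under this centring, with centred values of −0.78, −0.87 and −0.56 in L-*Dnm1l*–KO mice at 2M and in DKO mice at 2M and 6M. *Cyp2c37* and *Cyp2d9* kept theirs in DKO mice at 2M, at −2.35 and −2.24, and lost them at 6M, at −0.58 and −0.36. *Cyp1a2* had a centred value of −0.18 in DKO mice at 6M.

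Hepatocyte genes outside the P450 families had their lowest medians in the same comparisons as the members, L-*Dnm1l*–KO mice at 2M and DKO mice at both ages. Coding genes with no opposite-strand gene did so too, and the 2 were not told apart. A list of 12 hepatocyte genes, *Alb*, *Apoa1* and *Ttr* among them, had median log2 fold changes of −1.14, 0.13 and −1.12 at 2M (L-*Dnm1l*–KO, TKO and DKO in turn) and of −0.17, 0.07 and −1.29 at 6M. The genes below WT numbered 11, 2 and 10 at 2M and 8, 4 and 12 at 6M. Of these 12, 5, 0 and 5 were called lower at 2M and 0, 0 and 11 at 6M, where the shares of all tested genes were 3.22%, 0.199% and 4.94% at 2M and 1.56%, 0.535% and 9.42% at 6M. For coding genes with no opposite-strand gene the shares were 5.37%, 0.110% and 5.18% at 2M and 1.16%, 0.219% and 16% at 6M. *Alb*, with a mean of 4958, had a log2 fold change of −1.23 ± 0.41 in DKO mice at 6M. Markers of other liver cells were sparse. The 12 macrophage markers summed to a mean of 144, of which *Csf1r*, whose exons overlap an opposite-strand coding gene, held 121, and *Csf1r* was called higher in DKO mice at 6M (0.81 ± 0.19, adjusted *P* = 0.0017). The other 11 macrophage markers were all below WT there and none was called, the median of the 12 being −1.29, and of these 12 only 4 had an adjusted *P* value. At 2M the list stood the other way, with medians of 0.67 in L-*Dnm1l*–KO and 0.87 in DKO mice, 2 of 12 below WT in each and none called, and in L-*Dnm1l*–KO mice at 6M the median was 1.00. The 11 stellate cell, 8 endothelial and 7 cholangiocyte markers summed to 25.2, 21 and 4.17. In DKO mice at 2M the stellate cell list stood at a median of 1.10, with 1 of 11 below WT, and 7 of 8 endothelial markers were below WT in DKO mice at 6M. No cholangiocyte marker and at most 3 stellate cell and 3 endothelial markers had an adjusted *P* value in any comparison, so that nearly all of them could not be called, and the part of cell composition in the P450 values was not tested.

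**Figure D3:**
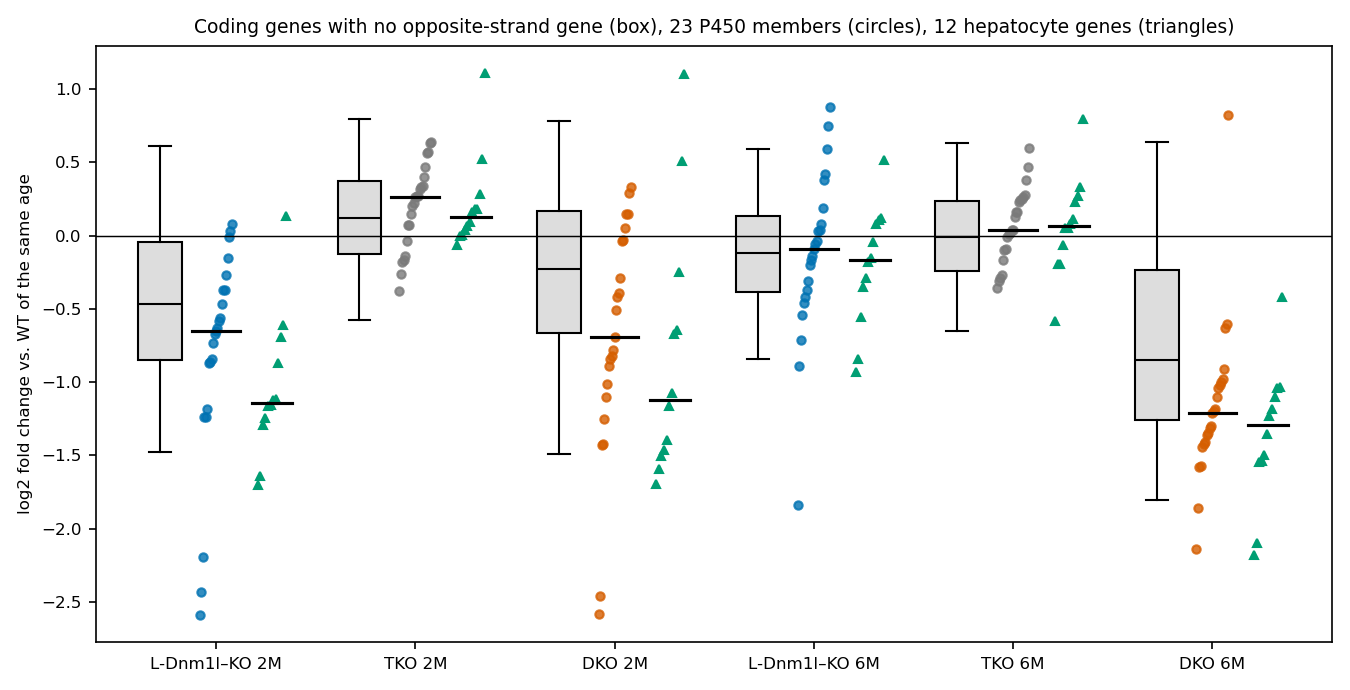
Log2 fold change against WT of the same age for coding genes with no opposite-strand gene and a mean of at least 10 (box: quartiles and median, whiskers: 5th to 95th percentile), 23 P450 members (circles) and 12 hepatocyte genes (triangles), with black bars at the medians. In DKO mice at 6M the medians are −0.85, −1.21 and −1.29, and in TKO mice at 6M −0.01, 0.04 and 0.07.

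The subfamilies were read by their members with a mean of at least 10. The 8 Cyp2c members, all on chromosome 19 with *Cyp2c23* apart from the other 7, were below WT in all 8 cases in L-*Dnm1l*–KO and DKO mice at both ages, with medians of −0.72 and −0.86 at 2M and −0.26 and −1.25 at 6M. For the 5 Cyp2d members, on chromosome 15 where placed, the medians were −0.86 and −1.42 at 2M and 0.03 and −1.30 at 6M. The 3 Cyp3a members on chromosome 5 had medians of −0.63 in L-*Dnm1l*–KO and −0.03 in DKO mice at 2M, and −0.04 and −1.44 at 6M. The Cyp2a pair, *Cyp2a5* and *Cyp2a12*, had medians of −0.19 and −0.32 at 2M and 0.51 and −0.80 at 6M. Of 8 members known to be pericentral, 1, 0 and 3 were called lower at 2M (in the same order of knockouts), and 1, 0 and 7 at 6M. All 8 have no opposite-strand gene, and of such coding genes 5.37%, 0.110% and 5.18% were called lower at 2M and 1.16% and 0.219% in L-*Dnm1l*–KO and TKO mice at 6M. In DKO mice at 6M 14 of the 24 tested members of that kind and 16% of such coding genes were called lower. The single periportal member listed, *Cyp2f2*, was not called, with −0.56 ± 0.30, 0.07 ± 0.30 and −0.29 ± 0.30 at 2M and 0.38 ± 0.28, 0.38 ± 0.28 and −0.63 ± 0.29 at 6M. Whether pericentral members differed from the periportal member was not tested.

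*Cyp2f2* is also the member with the most abundant partner on the opposite strand. *Gm15883*, an antisense gene that overlaps 274 bases of *Cyp2f2* exons, had a mean of 7813, 90 times that of *Cyp2f2* (86.8). Which of these rows holds the *Cyp2f2* mRNA depends on the counted strand and was not tested, so that the direction of *Cyp2f2* is uncertain where the rows differ in sign. *Gm15883* was higher in L-*Dnm1l*–KO mice at 2M (0.58 ± 0.18, adjusted *P* = 0.028) and in DKO mice at 6M (0.50 ± 0.18, adjusted *P* = 0.041), where the *Cyp2f2* row stood at −0.56 and −0.63. In the other 4 comparisons both had the same sign and neither was called, with *Gm15883* and *Cyp2f2* at −0.41 and −0.29 in DKO mice at 2M and at 0.27 and 0.38 in L-*Dnm1l*–KO mice at 6M. For *Cyp2u1*, with a mean of 2.67, the partner *4930534D22Rik* had a mean of 50.4 and was lower in L-*Dnm1l*–KO mice at 6M (−0.99 ± 0.29, adjusted *P* = 0.024), where *Cyp2u1* stood at 0.03 ± 0.86.

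**Figure D4:**
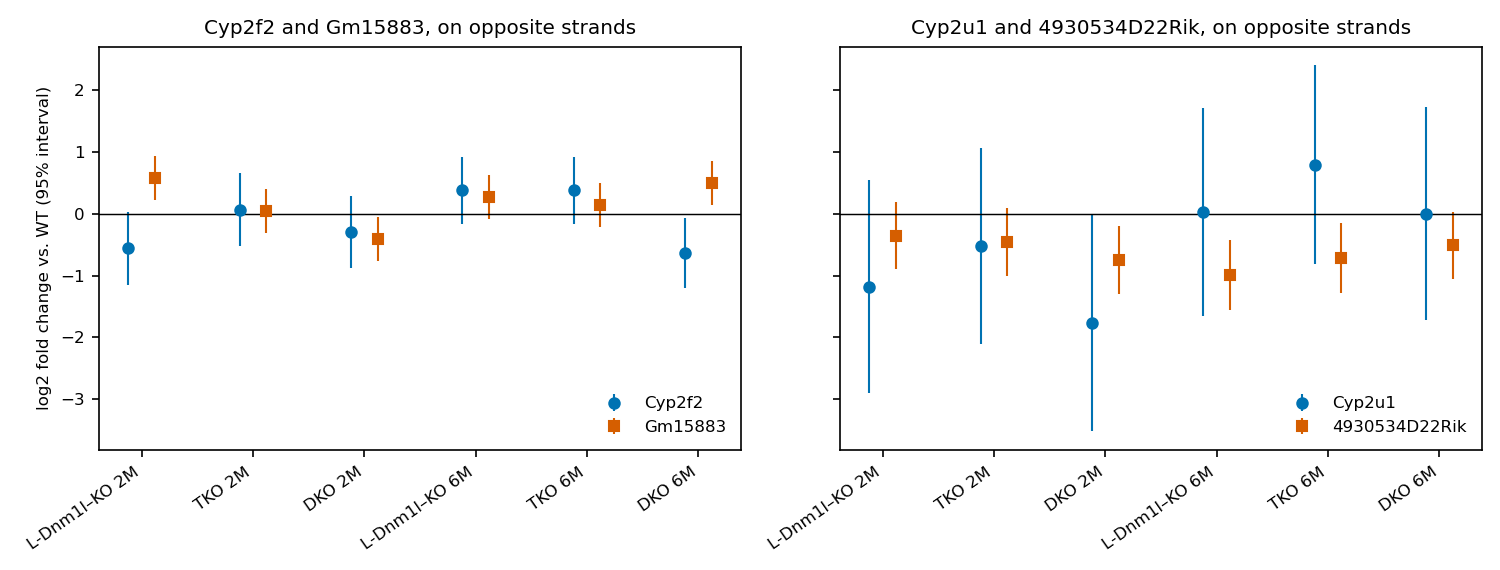
Log2 fold change against WT with its 95% interval for *Cyp2f2* and *Cyp2u1* (circles) and for the gene on the opposite strand of each (squares), in the 6 comparisons. *Gm15883* lies above 0 and *Cyp2f2* below 0 in L-*Dnm1l*–KO mice at 2M (0.58 and −0.56) and in DKO mice at 6M (0.50 and −0.63), and both lie on the same side of 0 in the other 4 comparisons.

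Effects were then compared between ages as the difference of the log2 fold changes. In L-*Dnm1l*–KO mice 21 of the 23 members had a higher value at 6M than at 2M, with a median difference of 0.56, beside 0.35 for coding genes with no opposite-strand gene. Of 23 members tested, *Cyp2d10* differed between ages, by 2.23 ± 0.58 (95% interval 1.10 to 3.36, adjusted *P* = 0.029), and 0.918% of all tested genes did. This call was lost when every gene with a *P* value entered the adjustment, and with centring within overlap kinds. In DKO mice the median difference was −0.35, beside −0.53 for coding genes with no opposite-strand gene. *Cyp2c70* was the only one of 28 tested members to differ there, by −1.71 ± 0.50 (−2.68 to −0.74, adjusted *P* = 0.019), where 4.87% of genes did, and its call was lost under the same 2 settings. *Cyp3a13*, *Cyp3a25* and *Cyp2d22* had differences of −1.83 ± 0.71, −1.39 ± 0.56 and −1.63 ± 0.63 that did not pass the adjustment (adjusted *P* = 0.11, 0.12 and 0.1). In TKO mice none of 23 differed by this test, 0 had an unadjusted *P* under 0.05, and 0% of all tested genes passed.

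**Figure D5:**
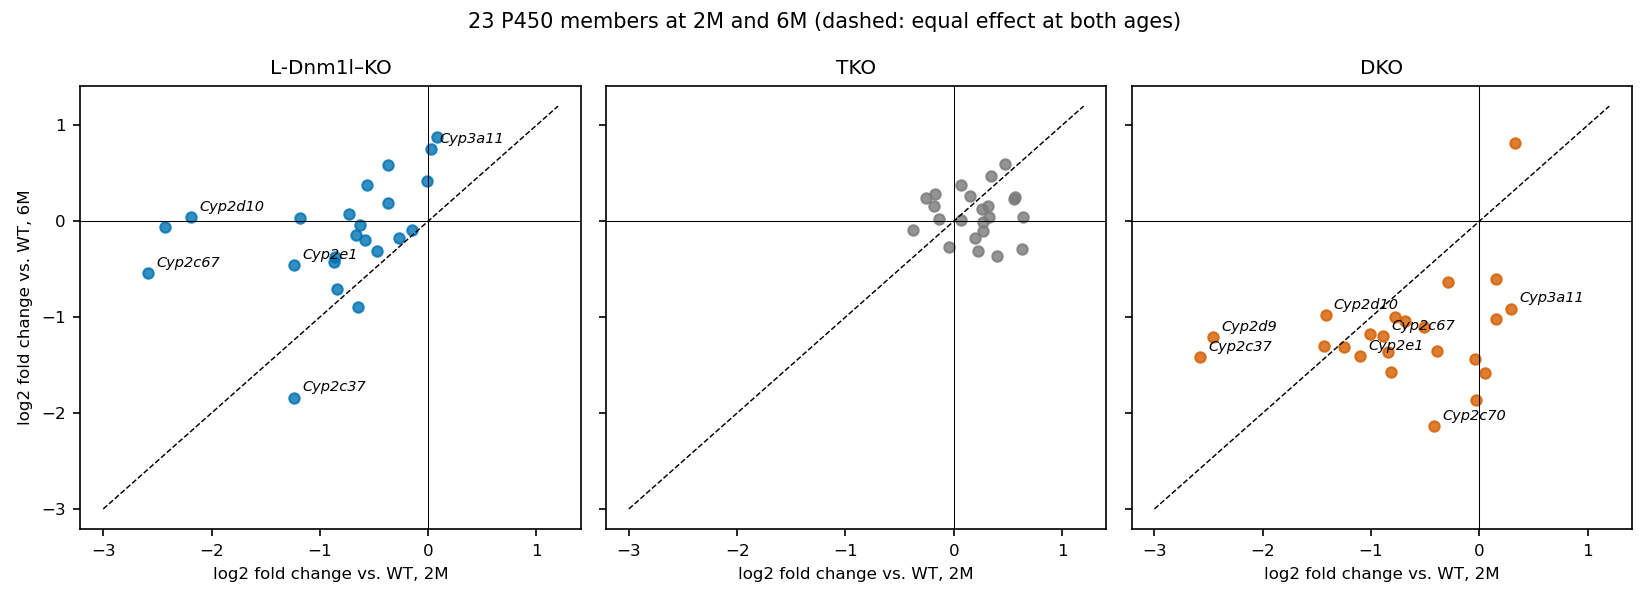
Log2 fold change against WT at 2M (horizontal) and 6M (vertical) of the 23 members with a mean of at least 10, 1 panel per knockout, with a dashed line where both ages are equal. In the L-*Dnm1l*–KO panel 21 of 23 members lie above the line, *Cyp2d10* with a difference of 2.23, and in the DKO panel 18 lie below it, *Cyp2c70* with a difference of −1.71.

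Genotypes of the same age share their WT libraries, so the test of their difference, which adds both squared SEs, is conservative. Between TKO and DKO mice at 2M, *Cyp2c37* differed by 2.91 ± 0.61 (1.71 to 4.10, adjusted *P* = 3.6e-04) and *Cyp2d9* by 2.53 ± 0.60 (1.35 to 3.71, adjusted *P* = 0.0026), both higher in TKO, where 2.89% of genes differed. Between DKO and L-*Dnm1l*–KO mice at 6M, *Cyp2c70* (−1.82 ± 0.48, adjusted *P* = 0.031) and *Cyp2a5* (−1.43 ± 0.38, adjusted *P* = 0.037) were lower in DKO, where 0.768% of genes differed, and both calls were lost under these 2 settings. No member differed between TKO and L-*Dnm1l*–KO mice at 2M by this test, with 7 of 24 members at an unadjusted *P* under 0.05, beside 12.1% of all tested genes and 20.7% of those with no opposite-strand gene and a mean of at least 10, and with 1.24% of genes called. The closest were *Cyp2e1*, higher in TKO by 1.80 ± 0.53 (0.76 to 2.84, adjusted *P* = 0.051), and *Cyp2c67*, by 2.92 ± 0.91 (1.14 to 4.69, adjusted *P* = 0.071). When *P* values were adjusted over the genes whose mean reached 10, *Cyp2e1* passed (adjusted *P* = 0.037).

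The other 3 comparisons of genotypes called no member by the same test. Between DKO and L-*Dnm1l*–KO mice at 2M 3 of 24 members had an unadjusted *P* under 0.05, beside 7.29% of all tested genes and 10.2% of those with no opposite-strand gene, and 1.12% of genes were called, and *Cyp2d9* had a difference of −1.60 ± 0.61 (−2.79 to −0.41, adjusted *P* = 0.27). Between TKO and L-*Dnm1l*–KO mice at 6M 0.267% of genes were called. There 1 of 23 members, *Cyp2c37* at 1.88 ± 0.53 (0.84 to 2.92, adjusted *P* = 0.099), had an unadjusted *P* under 0.05. So did 3.85% of all tested genes and 2.32% of coding genes with no opposite-strand gene and a mean of at least 10. Between TKO and DKO mice at 6M 18 of 23 members did, all of them higher in TKO, as did 21% of all tested genes and 34.5% of coding genes with no opposite-strand gene and a mean of at least 10, with adjusted *P* values from 0.071 (*Cyp2c70*, 1.78 ± 0.48). The median difference was 1.28 over the 23 members and 0.85 over coding genes with no opposite-strand gene. By adjusted *P*, 0.111% of all tested genes were called. After centring on the median gene *Cyp2c70*, *Cyp2c54* and *Cyp2a5* passed.

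The partners that supply P450 enzymes with electrons were examined next. *Por* was not called, with log2 fold changes of −0.77 ± 0.39 in L-*Dnm1l*–KO mice at 2M and −0.67 ± 0.37 in DKO mice at 6M. *Cyb5a* was lower in both of these, at −1.40 ± 0.34 (adjusted *P* = 0.0021) and −1.40 ± 0.32 (adjusted *P* = 8.8e-04). Of the 6 listed redox partners, 2 were lower in L-*Dnm1l*–KO mice at 2M, the other being *Cyb5r3*, the NADH-cytochrome b5 reductase (−0.38 ± 0.13, adjusted *P* = 0.045). In DKO mice at 6M 4 were lower, with *Cyb5b* at −1.87 ± 0.41, *Pgrmc1* at −1.20 ± 0.29 and *Pgrmc2* at −1.65 ± 0.54 beside *Cyb5a*. Among coding genes with no opposite-strand gene, 5.37% were called lower in the former comparison and 16% in the latter. No redox partner was called in the remaining comparisons.

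Of 12 genes of heme synthesis and breakdown, *Fech*, the last enzyme of heme synthesis, was lower in DKO mice at 6M (−1.25 ± 0.41, adjusted *P* = 0.024). It was 1 of 10 heme genes tested there, beside 9.42% of all tested genes called lower and 16% of coding genes with no opposite-strand gene. *Ppox* (0.58 ± 0.18) and *Hmox2* (0.75 ± 0.25) were higher there, and the exons of both overlap an opposite-strand coding gene. The share of all genes called higher in that comparison was not counted. *Alas1*, the rate-limiting enzyme of heme synthesis in liver, was not called, at −1.31 ± 0.59 in DKO mice at 6M (adjusted *P* = 0.11). No heme gene was called in another comparison.

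Among the 13 xenobiotic receptors and partners in the table, *Rxra*, the common partner of CAR and PXR, was lower in DKO mice at 6M (−1.07 ± 0.36, adjusted *P* = 0.027), and no other call was made. It was 1 of 12 tested there, beside 9.42% of all tested genes called lower. *Nr1i3* ranged from −0.38 to 0.28 over the 6 comparisons, on a row that overlaps an opposite-strand coding gene, *Nr1i2* from −0.95 to 0.79, and *Ahr* was at −1.96 ± 0.79 in DKO mice at 6M (adjusted *P* = 0.073). Of 14 other CAR and PXR targets, 7 were lower in DKO mice at 6M, *Ugt1a1*, the bilirubin transferase, with the largest fall (−2.30 ± 0.56, adjusted *P* = 0.0017), followed by *Ugt2b35* (−2.04), *Ces2a* (−1.64), *Abcc2* (−1.56), *Abcc3* (−1.10), *Aldh1a1* (−1.08) and *Ugt2b34* (−1.03). Of these 14 targets 11 were tested there, and 9.42% of all tested genes and 16% of coding genes with no opposite-strand gene were called lower. *Aldh1a1* was higher in DKO mice at 2M (1.03 ± 0.36, adjusted *P* = 0.048), and no target was called elsewhere. None of the 3 AhR targets outside the P450 family in the table had an adjusted *P* value, and their means did not exceed 2.3.

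Of 9 genes of growth hormone signalling, *Igf1* was lower in L-*Dnm1l*–KO mice at 2M (−1.05 ± 0.29, adjusted *P* = 0.01) and DKO mice at 6M (−0.87 ± 0.27, adjusted *P* = 0.018). *Ghr*, the growth hormone receptor, was lower in DKO mice at 2M (−0.79 ± 0.27, adjusted *P* = 0.037) and 6M (−1.02 ± 0.27, adjusted *P* = 0.0037). Of the 9 genes, 3 were tested in L-*Dnm1l*–KO mice at 2M, 5 in DKO mice at 2M and 7 in DKO mice at 6M. In the same order, 3.22%, 4.94% and 9.42% of all tested genes were called lower, and 16% of coding genes with no opposite-strand gene in the last. Of the 2 male-biased members listed, *Cyp2d9* fell in DKO mice at both ages, the 6M call being lost under the 2 settings named above, and *Cyp2u1* stood at −1.76 ± 0.90 with no adjusted *P* value at 2M and at −0.00 ± 0.88 at 6M. The 6 female-biased members in the table had means of at most 4.10, and only *Cyp2a4* had an adjusted *P* value, in DKO mice (0.54 at 2M and 0.65 at 6M). *Xist* and 4 Y-linked genes were not called in any comparison by DESeq2, *Xist* being at −0.42 ± 0.86 in DKO mice at 2M and 1.61 ± 0.94 at 6M. Their means were 1.28 to 7.32, and few had an adjusted *P* value. In each comparison at 2M 3 of these 5 genes did, and at 6M 1 in L-*Dnm1l*–KO, 0 in TKO and 3 in DKO mice. The others could not be called, and the part of sex in the P450 values was not tested.

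Of 10 hepatocyte transcription factors, *Cebpa* was lower in L-*Dnm1l*–KO mice at 2M (−0.86 ± 0.27, adjusted *P* = 0.035). *Foxa1* was lower in DKO mice at 2M (−1.25 ± 0.43, adjusted *P* = 0.041) and *Foxa2* at 6M (−3.44 ± 1.27, adjusted *P* = 0.046, mean 2.51). These calls were 1 of 9 tested factors in L-*Dnm1l*–KO mice at 2M, 1 of 9 in DKO mice at 2M and 1 of 10 in DKO mice at 6M. In the same order, 3.22%, 4.94% and 9.42% of all tested genes were called lower. *Hnf4a* was not called, with −0.69 ± 0.30 in L-*Dnm1l*–KO mice at 2M and −0.73 ± 0.29 in DKO mice at 6M.

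The targeted genes were checked in the same table. *Mfn2* had fallen in the TKO livers of 2M (−2.05 ± 0.53, adjusted *P* = 0.039) and in those of DKO mice at both ages (−3.43 ± 0.66 and −1.59 ± 0.52), and *Mfn1* was lower in DKO mice at 6M (−3.74 ± 0.98, adjusted *P* = 0.0038). At 2M *Mfn1* was tested in both TKO and DKO mice and was not called. In TKO mice at 6M *Mfn1* stood at −2.27 ± 0.70 and *Mfn2* at −1.16 ± 0.48, with no adjusted *P* value. *Dnm1l*, with a mean of 8.7, was not called in any comparison, at −0.42 ± 0.52 and −0.44 ± 0.47 in the libraries labelled L-*Dnm1l*–KO at 2M and 6M and at 0.58 ± 0.48 and −0.37 ± 0.47 in those labelled TKO. A count over the whole gene does not single out the deleted exons, and the limit of the counted strand holds for this row too. The row leaves the *Dnm1l* deletion unchecked in both genotypes, and the reason for its values was not tested.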

How the data were processed

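Liver RNA of 32 mice in 8 groups was sequenced by the authors as strand-specific poly(A) libraries, with single-end reads of 75 bases. Per the labels and the study's methods, reads were mapped with HISAT2 to GRCm38, counted on genes with HTSeq and fitted with DESeq2. The authors' DESeq2 results were the only values used. The signal the authors deposited is the mean normalized count over all libraries. The log2 values deposited are fold changes against WT of the same age and their SEs. The Wald statistic is a score from the authors' fit, and each p-value deposited is that of its test, unadjusted or Benjamini-Hochberg adjusted after DESeq2's filter on low counts. These are the authors' own comparisons, reused here because values per library were not analysed.

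From these values, intervals at 95% were taken as the log2 fold change ± 1.96 SE, and differences between effects were tested with the SEs added in squares and Benjamini-Hochberg adjustment over genes with an adjusted p-value in both comparisons. The test of differences between ages was also run on normal errors simulated with the deposited SEs, for L-*Dnm1l*–KO and DKO mice. These errors match the assumption of the test, so the run checks the calculation only. Differences between genotypes were not simulated. Gene positions, exon lengths and overlaps came from GENCODE M21 (GRCm38), which lacks *Cyp2d13*. Calculations used Python 3.11.15, numpy 2.4.6, pandas 2.3.3, scipy 1.17.1 and matplotlib 3.10.9. The named members are those called in any comparison, those with a mean of at least 10 and well-known members, and other genes come from lists of P450 partners, regulators and cell markers. The members and lists were chosen with earlier results of these data known. Alternatives were a log2 fold change threshold of 1 or 1.5, adjustment over all genes or over those whose mean reached 10, centring on the median gene or within overlap kinds, and members with no overlapping gene. A listed regulator is not reported here.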

Additional observations from a re-analysis of the deposited data

Results flagged for a closer look

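The effect on *Cyp2d10* differed between ages in L-*Dnm1l*–KO mice, with log2 fold changes of −2.19 at 2M and 0.04 at 6M, a difference of 2.23 ± 0.58 (SE, adjusted *P* = 0.029, test of the difference over 5336 genes). The effect on *Cyp2c70* differed between ages in DKO mice, at −0.42 and −2.14, a difference of −1.71 ± 0.50 (adjusted *P* = 0.019, over 7881 genes). *Cyp2d10* shares 22.3% of its 75-base windows with other genes and *Cyp2c70* shares 0. Both differences were no longer called when every gene with a p-value entered the adjustment or after centring within overlap kinds.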

How the results depend on the processing

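Only centring, on the median gene or within overlap kinds, could turn a direction, and it turned that of no called member. The other alternatives leave the log2 fold changes as they are. With a log2 fold change above 1.5, calls fell to 2 in L-*Dnm1l*–KO mice at 2M, 3 in DKO mice at 2M and 4 in DKO mice at 6M, by construction. When every gene with a p-value entered the adjustment, 2 remained in L-*Dnm1l*–KO mice at 2M, and 0 members differed between ages in L-*Dnm1l*–KO or DKO mice and 0 between DKO and L-*Dnm1l*–KO mice at 6M. When only genes whose mean reached 10 did, 1 member differed between TKO and L-*Dnm1l*–KO mice at 2M and 5 between TKO and DKO mice at 2M. Centring on the median gene gave 3 between TKO and DKO mice at 6M. Leaving out members with an overlapping gene left 4 in DKO mice at 2M, since it removed *Cyp2c29*, *Cyp2d9* and *Cyp2d10*. Centring within overlap kinds, added after seeing the data, left 1 call in L-*Dnm1l*–KO mice at 2M and 2 in DKO mice at 6M, of which *Cyp2d13* has no annotated overlap kind. This centring left 0 differences between ages in L-*Dnm1l*–KO mice and 0 between DKO and L-*Dnm1l*–KO mice at 6M. In DKO mice it called *Cyp2d9* (1.87) between ages in place of *Cyp2c70*. The cause of these changes was not tested. Among named members, 5 calls were lost with adjustment over all genes and 17 with centring within overlap kinds, and 6 were gained with the mean of 10 and 2 with centring on the median gene. Leaving out single replicates, edgeR and TMM were not run because they need values per library. No paired analysis was possible because values per library were not analysed. Depth per library is unknown, and 19 members had no adjusted p-value in any comparison.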

Other observations

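Of 30 genes of P450 families above 3 in the table, which act on bile acids, steroids and fatty acids among others, 10 to 16 were tested in each comparison. In L-*Dnm1l*–KO mice at 2M 1 of 14 was called lower (3.22% of all tested genes), in DKO mice at 2M 1 of 15 (4.94%), and in DKO mice at 6M 1 of 16 was called lower (9.42%) and 1 higher. *Cyp7b1*, an oxysterol hydroxylase of the alternative bile acid pathway that is higher in male liver, was lower at 2M in L-*Dnm1l*–KO mice (−2.57 ± 0.66, adjusted *P* = 0.0047, DESeq2) and DKO mice (−3.51 ± 0.74, adjusted *P* = 1.1e-04). *Cyp4f14*, a fatty acid hydroxylase, was lower in DKO mice at 6M (−1.60 ± 0.49, adjusted *P* = 0.015). *Cyp17a1*, a steroid hydroxylase, was higher there (1.99 ± 0.61, adjusted *P* = 0.014).

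Some rows on the opposite strand of weakly counted members also passed the test. *Gm42375*, which overlaps 61 bases of *Cyp2a4*, was higher in L-*Dnm1l*–KO mice at 6M (6.15 ± 1.56, adjusted *P* = 0.0068), where *Cyp2a4* stood at 3.63 ± 1.48 with no adjusted *P* value. *Gm23800*, over 64 bases of *Cyp2c55*, was higher in DKO mice at 2M (2.68 ± 0.64, adjusted *P* = 9.4e-04).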
